A study of Sus scrofa with 8 samples.

Results

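The secretory genes of the serous glands of the nose were taken by gene name: AQP5, BPIFA1, BPIFB1, LTF, LPO, PIGR, DMBT1, SCGB1A1, LYZ and PIP. Of these 10 names, 8 were found among the 22516 genes quantified, and DMBT1 and PIP were not analysed here because no identifier in the name table carried them. RNA-seq of olfactory epithelium (OE) came from sows of a Landrace by Rongchang cross, 8 months old and all in estrus. The androstenone treatment group was 2 sows whose nasal cavity was sprayed with Boarmate, a commercial spray that mainly contains the boar pheromone androstenone, and the OE was taken 30 min later. The control group was 2 sows that received no solution, so that a response to androstenone cannot be told apart from a response to the spray liquid or to being sprayed. Left and right OE were separate libraries, 4 per group, and the labels do not tie a library to its sow. The p-values therefore treat libraries as replicates, although each group held 2 animals, and the treatment cannot be told apart from differences between these sows.

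Serous glands lie under the respiratory and olfactory surface of the nose and secrete a watery fluid rich in proteins that bind, cut or oxidise parts of microbes. BPIFA1 and BPIFB1 are lipid-binding proteins of the airway lining fluid, LTF (lactoferrin) binds iron, LYZ (lysozyme) cuts bacterial cell walls, and LPO (lactoperoxidase) uses hydrogen peroxide to oxidise thiocyanate. PIGR carries dimeric IgA from plasma cells across the epithelium, SCGB1A1 is the small secreted protein of club cells, and AQP5 is the apical water channel of gland acini. Several of these genes are also used outside glands: neutrophils store LTF and LYZ, and macrophages make LYZ.

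The libraries differed in ways that bear on these genes. The summed estimated counts were 4178330 in control 1 and between 81580146 and 100685566 in the other 7 libraries. The study's sequencing summary lists clean reads for its Control 1 within the range of its other libraries. The reason for the low sum of control 1 is thus not known. Bone and cartilage genes summed to 26599 TPM (a level scaled for transcript length and library total) in control 4, against 194 to 1040 TPM in the other libraries. Markers of olfactory sensory neurons were uneven for tissue named OE. Of the 11 matched, STOML3 averaged 87.0 TPM in the control and 102 TPM in the androstenone libraries, ANO2 28.2 and 25.2 TPM, and ADCY3 11.7 and 9.65 TPM. The odorant channel subunit CNGA2 averaged 1.10 and 2.73 TPM, RTP1 0.0208 and 0.0216 TPM, and RTP2 was listed at 0. STOML3 reached 190 TPM in a control and 163 TPM in an androstenone library, whereas CNGA2 reached at most 5.01 TPM. A sum over these genes thus leans on STOML3 and does not stand for each marker. Summed over each list, olfactory neuron genes lay between 80.6 and 215 TPM and respiratory ciliated cell genes between 424 and 2528 TPM. Both sums were highest in control 3, androstenone 1 and androstenone 2. Ciliated cell genes were at 2528, 1746 and 2003 TPM there, against 424 to 1059 TPM in the other libraries. Olfactory neuron genes were at 215, 181 and 186 TPM, against 80.6 to 129 TPM. Genes of club and surface secretory cells split likewise, at 8642, 8330 and 10127 TPM against 1740 to 3514 TPM. In whole tissue, fewer cells of a type and less RNA per cell cannot be told apart.

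Among the 8 genes, 7 were abundant and LPO was not. Over all 8 libraries, BPIFA1 averaged 3342 ± 1931 TPM (SD, n = 8 libraries), which placed it above 99.8% of the 21318 genes tested. SCGB1A1 followed at 2091 ± 3200 TPM, PIGR at 1811 ± 1122 TPM and LTF at 944 ± 873 TPM. LYZ averaged 139 ± 89.9 TPM, BPIFB1 124 ± 63.1 TPM and AQP5 60.1 ± 44.9 TPM. LPO averaged 0.48 ± 0.6 TPM, above 20.7% of the genes tested. This order was firm in part: LTF exceeded LYZ, BPIFB1 exceeded AQP5 and AQP5 exceeded LPO in 8 of 8 libraries. LYZ exceeded BPIFB1 in 4 of 8, and SCGB1A1 exceeded PIGR in 2 of 8, so that these neighbours did not differ beyond the spread of the libraries. SCGB1A1 had the highest TPM of the 8 genes in control 1 and control 2, and BPIFA1 had the highest in the other 6. The mean of SCGB1A1 rested largely on control 1, at 9425 TPM, with 17.3 to 3330 TPM in the other libraries. Its rank also depended on the scale: its TPM was 6.74 to 9.30 times its count scaled to the library total alone. By counts it was in place 4 and PIGR in place 1. Together the 8 genes held between 0.358% (control 4) and 1.41% (control 3) of all transcripts by TPM.

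**Figure D1:**
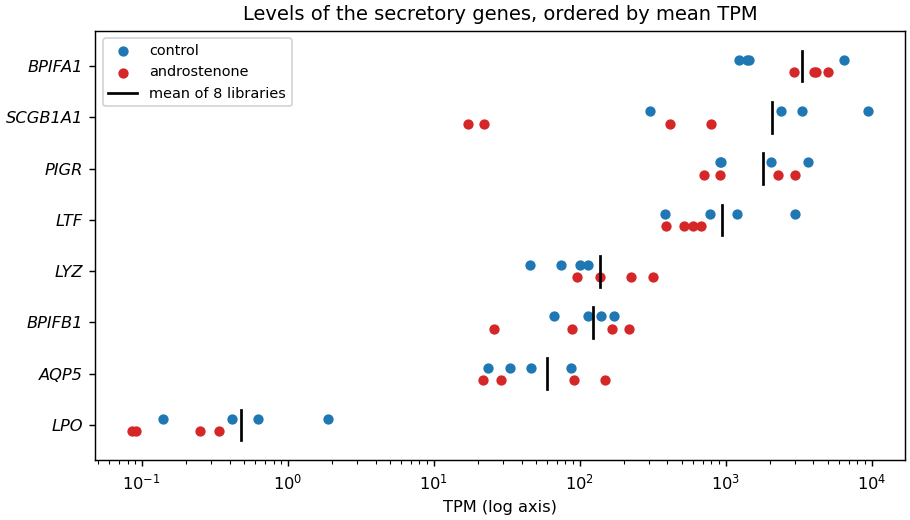
TPM on a log axis for each of the 8 genes, with a point per library (blue, control; red, androstenone) and a black bar at the mean of the 8 libraries. SCGB1A1 spans from 17.3 to 9425 TPM, while the other abundant genes stay within a fold range of 5.17 to 8.50.

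To ask whether these genes differed after androstenone, the groups were compared with edgeR's quasi-likelihood test on all genes, and the values below are CPM, which are counts scaled to a common library total after correction for composition by TMM. The study's cutoff was an unadjusted p below 0.05 together with a log2 fold change past 1 in size. At that cutoff 6.42% of the genes tested were called, 2.04% as higher and 4.38% as lower in the androstenone treatment group. Of the 8 secretory genes, LYZ was higher, and SCGB1A1 and LPO were lower. With p-values adjusted over the whole table by Benjamini-Hochberg, 0 of the 21318 genes passed in edgeR's quasi-likelihood test, whereas 2415 (11.3%) had an unadjusted p below 0.05, the 3 named genes among them. With the same adjustment, the likelihood ratio test passed 200 genes. DESeq2 passed 670 by its own default adjustment, which can leave out genes with low counts and so need not cover the whole table. None of the genes passed by either was among the 8. The median log2 fold change of the 8 genes was 0.11, against -0.021 over all genes tested. The androstenone and control libraries overlapped in 8 of the 8 genes, while over all genes 3.89% had every androstenone library above, and 2.64% every androstenone library below, every control library.

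**Figure D2:**
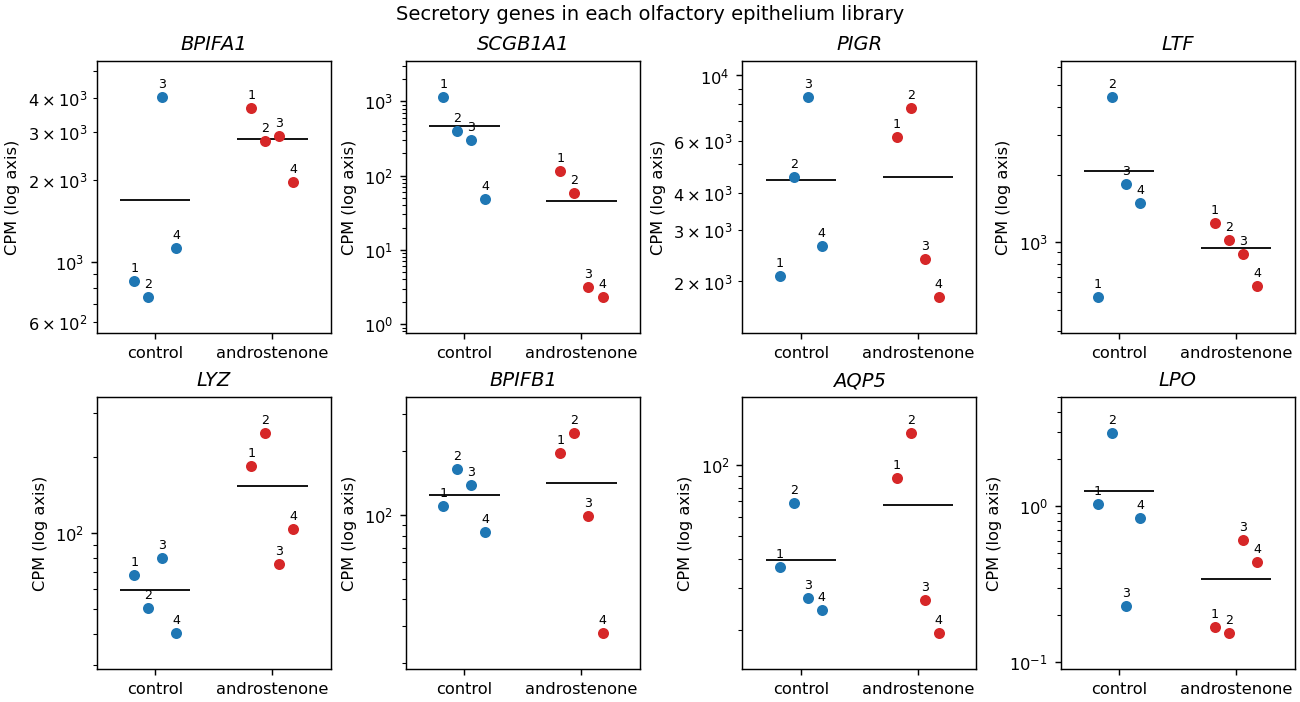
CPM on a log axis in each library, numbered by replicate, for the 8 genes in order of mean TPM, with a bar at the arithmetic mean of each group. The groups overlap in each panel, and SCGB1A1 in androstenone 3 and androstenone 4 sits at 3.12 and 2.33 CPM, below all other libraries.

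BPIFA1 and BPIFB1 lie next to each other on chromosome 17 of Sscrofa11.1, BPIFA1 from 36754498 to 36761622 and BPIFB1 from 36782307 to 36809756, with 20.7 kb between them. They belong to a cluster of BPI-fold genes on that chromosome. Of the 9 genes with a BPIF symbol, which include BPIFC on chromosome 5, these 2 were the abundant ones. The other 7 averaged between 0.25 and 14.8 TPM, the highest being BPIFA3, which ends just before BPIFA1. These 7 were chosen by family name after values were seen. BPIFA1 was at 846, 742, 4024 and 1126 CPM in the control libraries. In the androstenone libraries it was at 3676, 2781, 2888 and 1963 CPM. Control 3 was the highest of all 8 libraries, and the other 3 control libraries lay below every androstenone library. The log2 fold change of BPIFA1 was 0.75 (standard error 0.57, unadjusted p = 0.222, adjusted p = 0.611). Without control 3 it was 1.64 (unadjusted p = 0.000825), which passes the cutoff. BPIFB1 was at 110, 165, 139 and 83.2 CPM in the control and at 197, 244, 99.0 and 27.7 CPM in the androstenone libraries. Its highest and its lowest library were thus both from sprayed sows, and the groups differed by 0.19 on the log2 scale (standard error 0.57, unadjusted p = 0.748). On log2(TPM + 1) the sign turned, to -0.27. Although neighbours, the 2 genes differed in which libraries were low: BPIFB1 was lowest in androstenone 4, and BPIFA1 in control 2.

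LTF, on chromosome 13 from 29413886 to 29445751, was at 570, 4429, 1810 and 1494 CPM in the control libraries. The androstenone libraries were at 1210, 1018, 889 and 638 CPM. Of the control libraries 3 lay above every androstenone library, while control 1 was the lowest of all. LTF had a log2 fold change of -1.14 (standard error 0.56, unadjusted p = 0.0726, adjusted p = 0.47). It was -0.46 without control 2 (unadjusted p = 0.314) and -1.46 without control 1 (unadjusted p = 0.0123), so that control 2 and control 1 moved it in opposite directions. DESeq2 (unadjusted p = 0.0402) and edgeR's likelihood ratio test (unadjusted p = 0.0476) placed LTF past the cutoff.

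LPO, on chromosome 12 from 34525113 to 34554031, rested on few reads. Its rounded counts were 5, 270, 22 and 56 in the control and 16, 15, 55 and 44 in the androstenone libraries. That is 1.03, 2.95, 0.23 and 0.842 CPM against 0.168, 0.154, 0.611 and 0.438 CPM. The value of control 1 has a 95% exact Poisson interval of 0.334 to 2.40 CPM, which covers counting error only. Control 2 was the highest library, and control 3 lay among the androstenone libraries. The log2 fold change of LPO was -1.90 (standard error 0.80, unadjusted p = 0.0424, adjusted p = 0.435). Without control 2 it was -0.91 (unadjusted p = 0.251), and the cutoff was also missed without control 1, androstenone 1, androstenone 2 or androstenone 4 (unadjusted p between 0.0581 and 0.0965). LPO missed it as well on log2(TPM + 1), at -0.48 (limma, unadjusted p = 0.103), and on log2(TPM + 0.1), at -1.26 (limma, unadjusted p = 0.0815).

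The genes that supply LPO with hydrogen peroxide were measured beside it. The list of 7 (the oxidases DUOX1 and DUOX2, their partners DUOXA1 and DUOXA2, the anion carrier SLC26A4, and the related peroxidases MPO and EPX) had 0 genes past the cutoff in either direction, with a median log2 fold change of -0.12. Without control 3, 2 of the 7 passed upwards and 1 downwards, with a median of 0.04, and without control 2, androstenone 1 or androstenone 2, 1 passed downwards. DUOX2 averaged 27.0 TPM in the control and 44.9 TPM in the androstenone libraries, and DUOXA2 9.51 and 21.6 TPM. By group mean both were thus far more abundant than LPO. The control means rested largely on control 3, at 84.8 TPM for DUOX2 and 29.1 TPM for DUOXA2. In control 2, LPO at 1.89 TPM exceeded DUOXA2 at 1.40 TPM and was not far below DUOX2 at 2.76 TPM. The related peroxidases were also scarce, with MPO at 0.0659 and 0.0252 TPM and EPX at 0.0585 and 0.0249 TPM. SLC26A4, which carries anions such as iodide and thiocyanate, averaged 0.528 and 0.257 TPM, with every androstenone library below every control library. The groups differed by -0.96 on the log2 scale (standard error 0.34, unadjusted p = 0.0208, adjusted p = 0.416), just short of the cutoff in size.

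LYZ, on chromosome 5 from 33612593 to 33618953, was the gene of the 8 with the smallest p. Control libraries were at 68.0, 50.6, 79.4 and 40.2 CPM. The androstenone libraries were at 184, 249, 75.5 and 104 CPM. Androstenone 1, androstenone 2 and androstenone 4 lay above every control library, and androstenone 3 lay just below control 3. The log2 fold change of LYZ was 1.36 (standard error 0.40, unadjusted p = 0.00817, adjusted p = 0.393), or 2.57-fold. LYZ stayed past the cutoff with each library left out in turn (log2 fold change 1.00 to 1.59, unadjusted p between 0.00236 and 0.0255). Androstenone 1 and androstenone 2 were close over all genes (Pearson r of log2 CPM 0.992), as were androstenone 3 and androstenone 4 (0.990). Across these pairs r was 0.953 to 0.967. Control 3, from an unsprayed sow, was also close to androstenone 1 and androstenone 2 (0.980 and 0.981), so closeness alone does not mark a shared sow. Leaving out 1 library keeps its close partner, so these fits do not test whether LYZ depends on a single sow or site. With control 1 and control 4 both left out, a setting chosen after the data were seen, the log2 fold change was 1.20 and the unadjusted p 0.0731.

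Neutrophil genes were higher in the same group as LYZ. Of 12 neutrophil genes listed, 7 were matched, and 5 of the 7 were higher past the cutoff (S100A8, S100A12, CSF3R, AZU1 and LCN2), with a median log2 fold change of 1.23. Without control 2 or without control 4, 3 of the 7 were. S100A8, a calcium-binding protein that neutrophils hold in large amounts, was at 0.644 to 3.23 CPM in the control and 6.03 to 18.6 CPM in the androstenone libraries. CSF3R, the receptor for the growth factor of neutrophils, was at 3.23 to 5.55 and at 7.53 to 12.4 CPM. Both thus had every androstenone library above every control library. The summed level of the list was 617 to 2162 TPM in the control and 2366 to 5448 TPM in the androstenone libraries, most of it LCN2, which gland and surface cells also make. The granule enzyme MPO was near 0, as given above, and ELANE, another, averaged 13.6 TPM in the control and 10.5 TPM in the androstenone libraries. The part of neutrophils in the levels of LYZ and LTF was not tested. Of the 10 macrophage genes 0 passed the cutoff, and their summed level was 328 to 933 TPM in the control and 350 to 1060 TPM in the androstenone libraries.

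PIGR, on chromosome 9 from 67553094 to 67574698, did not separate the groups. Its level was 2093, 4535, 8449 and 2636 CPM in the control and 6191, 7737, 2384 and 1773 CPM in the androstenone libraries. Control 3, androstenone 1 and androstenone 2 were the highest, and within each group the highest library was at least several times the lowest. The same libraries were highest in ciliated cell and club cell genes, a link that was not tested. PIGR had a log2 fold change of 0.03 (standard error 0.61, unadjusted p = 0.962), and its sign turned under library size alone (-0.0067) and on the TPM scale (-0.12). Genes of the plasma cells whose IgA PIGR carries were measured beside it. JCHAIN, which joins IgA units, was at 7850, 4529, 2272 and 1054 CPM in the control and 7713, 4857, 7904 and 9582 CPM in the androstenone libraries. It was therefore highest in androstenone 4, where PIGR was lowest. Of the 9 plasma cell genes matched, 2 were higher past the cutoff, TNFRSF17 (the survival receptor BCMA, log2 fold change 1.19) and IRF4 (a regulator of plasma cell identity, log2 fold change 1.17), and 0 were lower. With control 4 left out, neither was, whereas 5 were higher without control 1 and 3 without control 2 or androstenone 2. Without control 3, androstenone 3 or androstenone 4, 1 was.

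SCGB1A1, on chromosome 2 from 9297282 to 9302204, varied most. The control libraries were at 1145, 401, 299 and 47.9 CPM. The androstenone libraries were at 117, 58.2, 3.12 and 2.33 CPM. Control 1, control 2 and control 3 exceeded every androstenone library, and control 4 lay below androstenone 1 and androstenone 2. Group means were 473 ± 472 CPM in the control and 45.1 ± 54.4 CPM in the androstenone libraries (SD, n = 4 each). The log2 fold change of SCGB1A1 was -3.39 (standard error 1.39, unadjusted p = 0.0386, adjusted p = 0.429), or 10.5-fold lower. Without control 1 it was -2.47 (unadjusted p = 0.11), and the cutoff was also missed without control 2, androstenone 2, androstenone 3 or androstenone 4 (unadjusted p between 0.0564 and 0.0649). The rounded counts of 281 and 234 in androstenone 3 and androstenone 4 are well above 0, so that depth does not limit the low values.

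Other genes of club and surface secretory cells were mixed. Of 9 matched, 0 passed the cutoff, with a median log2 fold change of 0.36. Without control 3, 2 were higher past it, and without control 4 or androstenone 1, 1 was lower. ALDH1A1, a retinal dehydrogenase, was at 1064, 480, 3981 and 979 CPM in the control and 2794, 3477, 1205 and 998 CPM in the androstenone libraries. The related secretoglobin SCGB3A1 was at 15.2, 8.28, 7.21 and 2.39 CPM in the control and 5.50, 7.76, 1.51 and 1.46 CPM in the androstenone libraries (means 37.3 and 16.1 TPM, unadjusted p = 0.187). Like SCGB1A1, it was highest in control 1 and lowest in androstenone 3 and androstenone 4. CYP4B1, a cytochrome P450 of club cells, had a log2 fold change of -0.92 (unadjusted p = 0.0689), while SCGB3A2 averaged 1.99 and 4.89 TPM. SCGB1A1 had a wider spread than nearly all genes: the SD of its log2 CPM over the 8 libraries was 3.20, larger than in 99.9% of the 15446 genes with a mean of at least 1 TPM. For the other 7 genes this SD lay between 0.89 and 1.39, at percentiles 79.9 to 93.0, against a median of 0.45 over the genes ranked. The upper end was LPO, and the next was AQP5 at 1.01 and percentile 84.6. LPO averaged 0.48 TPM, below the genes it was ranked against, and its few counts add counting error to its SD. Each of the 8 genes except LPO thus varied between libraries more than the median gene, and for LPO the comparison is not like with like.

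AQP5, on chromosome 5 from 15876527 to 15879608, was at 37.0, 68.8, 27.4 and 24.4 CPM in the control libraries. In the androstenone libraries it was at 87.9, 136, 26.8 and 19.4 CPM. The highest 2 libraries and the lowest library were all from sprayed sows. AQP5 had a log2 fold change of 0.78 (standard error 0.63, unadjusted p = 0.252). Without androstenone 2 it was 0.16. Among the 13 matched genes of fluid and ion transport, KCNN4, a calcium-activated potassium channel, was lower past the cutoff (log2 fold change -2.09), and 0 were higher. Without control 2, 0 passed, and without control 3, 3 were higher and 2 lower. KCNN4 was at 15.4, 54.5, 4.59 and 8.95 CPM in the control and 3.03, 5.20, 7.17 and 4.28 CPM in the androstenone libraries, so that control 2 was its highest library, as it was for LTF and LPO.

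**Figure D3:**
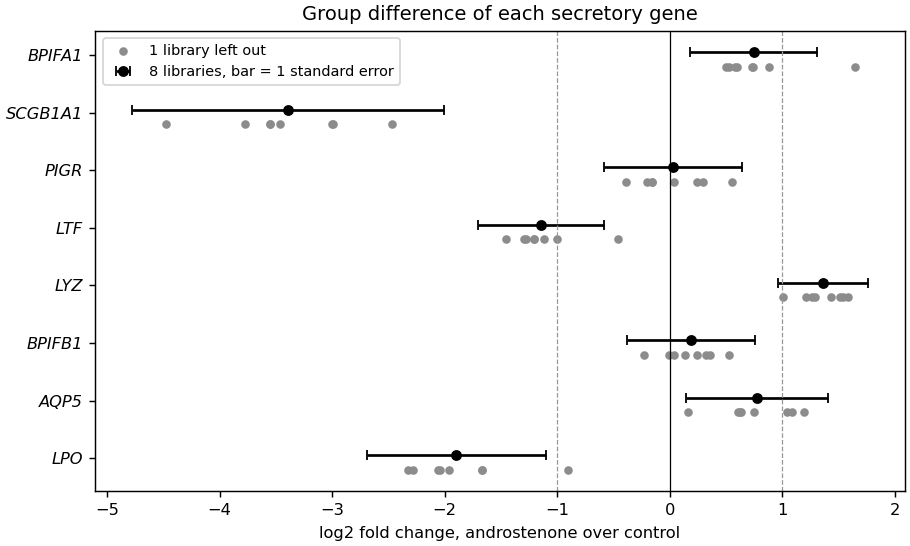
Log2 fold change of each gene, androstenone over control, with a bar of 1 standard error (black) and the values with each library left out (grey); dashed lines mark the cutoff at -1 and 1. LYZ stays above 1 with each library left out, and LPO crosses to -0.91 without control 2.

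Other genes of serous glands were as mixed as the 8. Of 17 listed, 13 were matched, 2 were higher past the cutoff and 1 was lower, with a median log2 fold change of 0.03. WFDC2, a secreted protease inhibitor, was at 267 to 747 CPM in the control libraries and at 2271, 2931, 378 and 291 CPM in the androstenone libraries (log2 fold change 1.86, unadjusted p = 0.0432). Its higher level was thus in androstenone 1 and androstenone 2, where AQP5, BPIFB1 and LYZ were also highest. LCN2, which binds bacterial iron carriers, had a log2 fold change of 1.23 (unadjusted p = 0.0264). TCN1, a vitamin B12-binding protein of serous cells, was at 20.5, 92.2, 5.03 and 23.8 CPM in the control and 3.31, 6.40, 11.7 and 3.95 CPM in the androstenone libraries (log2 fold change -2.49, unadjusted p = 0.0157). With control 2 left out, 0 of the 13 passed the cutoff in either direction, and without control 4 or androstenone 1, 0 were higher. Among cell types outside the glands, 0 of 12 ciliated cell genes, 0 of 10 olfactory neuron genes and 0 of 5 basal cell genes passed. Of 10 bone and cartilage genes 8 were lower past the cutoff, or 4 without control 4, androstenone 1, androstenone 3 or androstenone 4. Of 6 erythroid genes SLC4A1 was lower (log2 fold change -1.07), a call lost without control 1, control 2, androstenone 1, androstenone 2 or androstenone 4.

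Among 16 regulators and parts of the secretory machinery, 0 were higher and SOX9, a transcription factor of gland progenitors, was lower past the cutoff (log2 fold change -1.33). This call was lost without control 2, androstenone 1 or androstenone 2. SOX9 was at 9.65, 28.1, 5.04 and 17.7 CPM in the control and 5.24, 4.28, 7.44 and 7.28 CPM in the androstenone libraries. Short of the cutoff in size, RAB3D had every androstenone library above every control library (log2 fold change 0.82, unadjusted p = 0.00306, adjusted p = 0.393). CREB3L2 had every androstenone library below every control library (log2 fold change -0.70, unadjusted p = 0.0204, adjusted p = 0.416). XBP1, which expands the secretory pathway, was even, at 253 to 319 CPM in the control and 285 to 433 CPM in the androstenone libraries. Mucous and goblet cell genes had 0 of 6 matched genes past the cutoff, with a median log2 fold change of 0.34. Their summed level was highest in androstenone 1 and androstenone 2, at 4629 and 6916 TPM, next to 643 to 2827 TPM in the other 6 libraries. Of 8 matched genes of sustentacular cells and Bowman glands, the glands of the olfactory mucosa, GPX6 was lower past the cutoff (log2 fold change -3.49), and control 2 was its highest library at 32.6 CPM.

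Seen across libraries, the 8 genes did not form a single pattern. Control 2 was highest for LTF and LPO and lowest for BPIFA1. Androstenone 2 was highest for AQP5, BPIFB1 and LYZ, and lowest for LPO. Control 3 was highest for BPIFA1 and PIGR. Androstenone 4 was lowest for AQP5, BPIFB1, PIGR and SCGB1A1. Averaged over the 8 genes, log2 CPM relative to each gene's mean ran from -1.24 in androstenone 4 to 0.79 in control 2. Among 11774 other genes with a mean of at least 5 TPM, those most like this average were ENSSSCG00000052947 (Pearson r = 0.98 over 8 libraries), EIF4EBP3 (0.95), SCRN2 (0.95), MECR (0.94), LYRM1 (0.94) and NPDC1 (0.93). These are descriptions over libraries that share sows and scaling, and SCGB1A1 weighs most in the average.

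**Figure D4:**
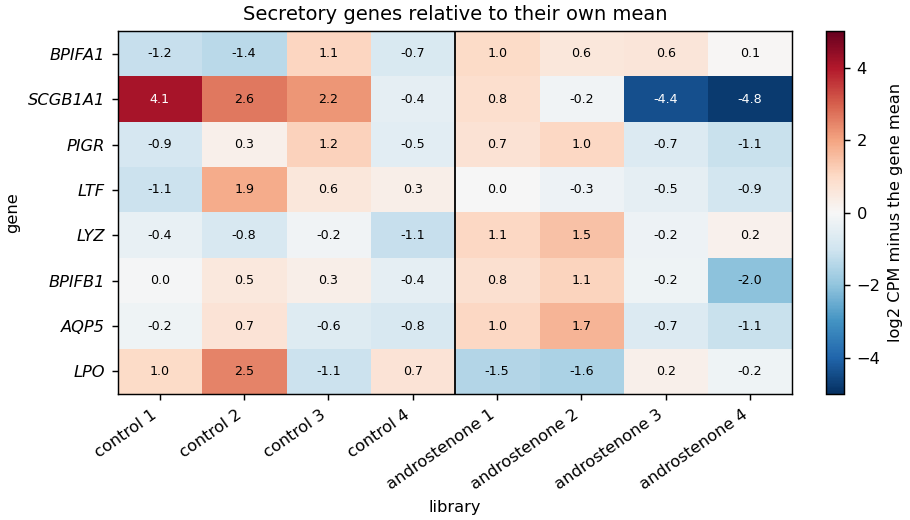
Log2 CPM of each gene minus its mean over the 8 libraries, with control libraries left and androstenone libraries right of the black line. SCGB1A1 runs from 4.13 in control 1 to -4.79 in androstenone 4, and LPO and BPIFA1 have opposite signs in 7 of 8 libraries.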

How the data were processed

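RNA-seq libraries of pig OE were compared between unsprayed (control) and sprayed (androstenone treatment) sows, 4 libraries per group. Per the labels and the study's methods, the authors filtered reads with fastp 0.23.1 and ran Kallisto 0.48.0 on the transcripts of Sscrofa11.1 (Ensembl release 108). The authors deposited estimated counts, not whole and not normalized, and TPM values per gene. How gene values were made from transcript values was not stated in the sources read, and Kallisto divides reads that match several transcripts, so genes with near-identical copies are uncertain.

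Counts were rounded, and the 21318 of 22516 genes with at least 1 count over all libraries entered edgeR 4.0.16 in R 4.3.3, with TMM factors, condition as sole term, the quasi-likelihood test and Benjamini-Hochberg adjustment. CPM were scaled by the TMM factor, and log2 CPM used a prior count of 2. Names came from a table that matched 15527 identifiers, and positions from RefSeq annotation of Sscrofa11.1, by symbol. The 8 genes and 15 further lists of gland, partner and cell type genes were chosen with earlier results of these data known. A further gene first listed with the peroxidase partners was left out of that list and is not reported here. From each list the text names genes past the cutoff and up to 3 of the highest mean TPM. Others are named as members of the same family, for levels near 0 or for groups without overlap. Alternatives were RLE, library size only, filterByExpr, no filter, DESeq2 1.42.0, the likelihood ratio test, a block for the replicate number, each library left out, and limma 3.58.1 on log2(TPM + 1) or log2(TPM + 0.1). The tests were checked on simulated counts drawn independently for each library, a check that does not cover libraries that share a sow.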

Additional observations from a re-analysis of the deposited data

Results flagged for a closer look

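BPIFA1 in control 3, at 4024 CPM, stood apart from the other control libraries, which were at 742 to 1126 CPM. Its gap to the nearest was 0.883 of the group's range, above Dixon's 95% critical value for 4 samples. This was 1 of 16 groups of values examined, and chance flags about 1 in 20.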

How the results depend on the processing

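Over 18 alternatives, the number of the 8 genes past the study's cutoff was 3 with RLE, library size only, filterByExpr and no filter, 4 in DESeq2 and the likelihood ratio test, 2 on both TPM scales, and 1 to 4 with each library left out in turn. It was 1 with control 1 and control 4 both left out, a setting chosen after the data were seen. LYZ, SCGB1A1, LPO, LTF, BPIFA1 and AQP5 kept their direction under each alternative run. PIGR turned to -0.0067 on library size only, to -0.12 on log2(TPM + 1) and -0.12 on log2(TPM + 0.1), and to -0.56 without control 1 and control 4. BPIFB1 turned to -0.27 and -0.28 on the 2 TPM scales and to -0.13 without control 1 and control 4. With each library left out, PIGR lay between -0.39 and 0.55 and BPIFB1 between -0.23 and 0.53. The smallest adjusted p of any of the 8 genes under any alternative was 0.0547 (LYZ in DESeq2, by its own default adjustment). Over all genes, the count past the cutoff went from 1368 to 867 without androstenone 1, 2414 without control 3, 321 on log2(TPM + 1) and 1978 in the likelihood ratio test. With the replicate block, 2 of the 8 genes and 583 of all genes passed, LPO did not (unadjusted p = 0.209), and BPIFB1 turned to -0.16. The replicate numbers do not pair sows, because the groups held different animals. Same-numbered libraries had correlations of their deviations from the group mean between -0.60 and 0.17, with 1 of 4 above 0.1. Deviations within a group of 4 depend on each other, so these values cannot show whether the numbers mark a side. The cause of these shifts was not tested. The low sum of counts limits LPO in control 1 most.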
